A study of Aspergillus niger with 6 samples.

Results

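The genes described here encode enzymes that build, cross-link, cut or modify the chitin and glucan of the fungal cell wall. They were read from the transcriptome of Aspergillus niger, a filamentous fungus used to produce enzymes and organic acids. Members were the genes whose domain annotation in the deposited table names a chitin synthase, glucan synthase, polysaccharide deacetylase or 1 of 6 glycoside hydrolase (GH) domains: GH16, GH17, GH18, GH72, GH76 and GH81. This gave 63 of 11910 genes. They were 10 chitin synthases, 1 glucan synthase, 30 transglycosylase-type genes, 1 endo-glucanase, 14 chitinases and 7 genes of the deacetylase type.

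Messenger RNA was sequenced from mycelium of a strain without rpnR (ΔrpnR) and of its control strain, MA234.1. The labels number the libraries 1 to 3 in each strain, while the series' design text speaks of duplicates, and neither says whether a strain's libraries came from separate cultures. Conidia of either strain had been grown for 16 h at 30 °C in transformation medium with 1% glucose, and the mycelium was then kept for 4 h in minimal medium with 25 mM xylose. The series title calls rpnR a predicted transcription factor gene that is regulated by FlbA, a regulator of G-protein signalling in Aspergillus. The labels describe no second deletion clone and no strain with rpnR put back. The table holds 1 value per gene and strain, read as FPKM, a fragment count corrected for transcript length and library size. No standard deviation or replicate number can therefore stand beside a value, and the depth of the libraries is unknown. A change was called where the q-value in the authors' deposited table was under 0.05. No row of the table named rpnR, so the deleted gene is not analysed here.

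The wall of a filamentous fungus is a mesh of chitin and beta-glucan fibres. Synthases in the plasma membrane extrude the chains, and transglycosylases outside the membrane elongate, branch and tie them together. Chitinases and glucanases cut the chains where hyphae grow, branch, age or lyse, and deacetylases turn chitin into chitosan.

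The members called lower in ΔrpnR were all chitinases. Of the 48 members that the authors tested, 4 were called lower and 0 higher, and the 4 are GH18 genes that the table names chitinase. Among all 9234 tested genes 3.25% were called lower and 3.29% higher by the same rule, 6.54% in all. In RNA of whole mycelium, fewer hyphae that express a gene and less transcript per hypha cannot be told apart. None of the 8 tested chitin synthases, 23 tested transglycosylases and 4 tested deacetylase-type genes was called, nor was the glucan synthase or the endo-glucanase. The median log2 ratio of ΔrpnR over MA234.1, on the log2(FPKM + 1) scale, was -0.76 over the 11 tested chitinases, -0.03 over the chitin synthases and -0.05 over the transglycosylases, against 0.02 over all tested genes. Most members differed little between strains: 32 of 48 differed by less than 1.5-fold, a share close to the 67.1% of all tested genes.

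For the other 15 members the authors' deposited table gives a q of 1, read here as untested. None of them exceeded 0.971 FPKM in either strain, and 3 were listed at 0 in both. Of the 63 members 41 reached 5 FPKM in at least 1 strain. Among these 41 genes, 4 were lower in ΔrpnR by 2-fold or more and 1 was higher by 2-fold or more. Over the 7575 genes with that level the shares were 6.47% lower and 7.17% higher.

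**Figure D1:**
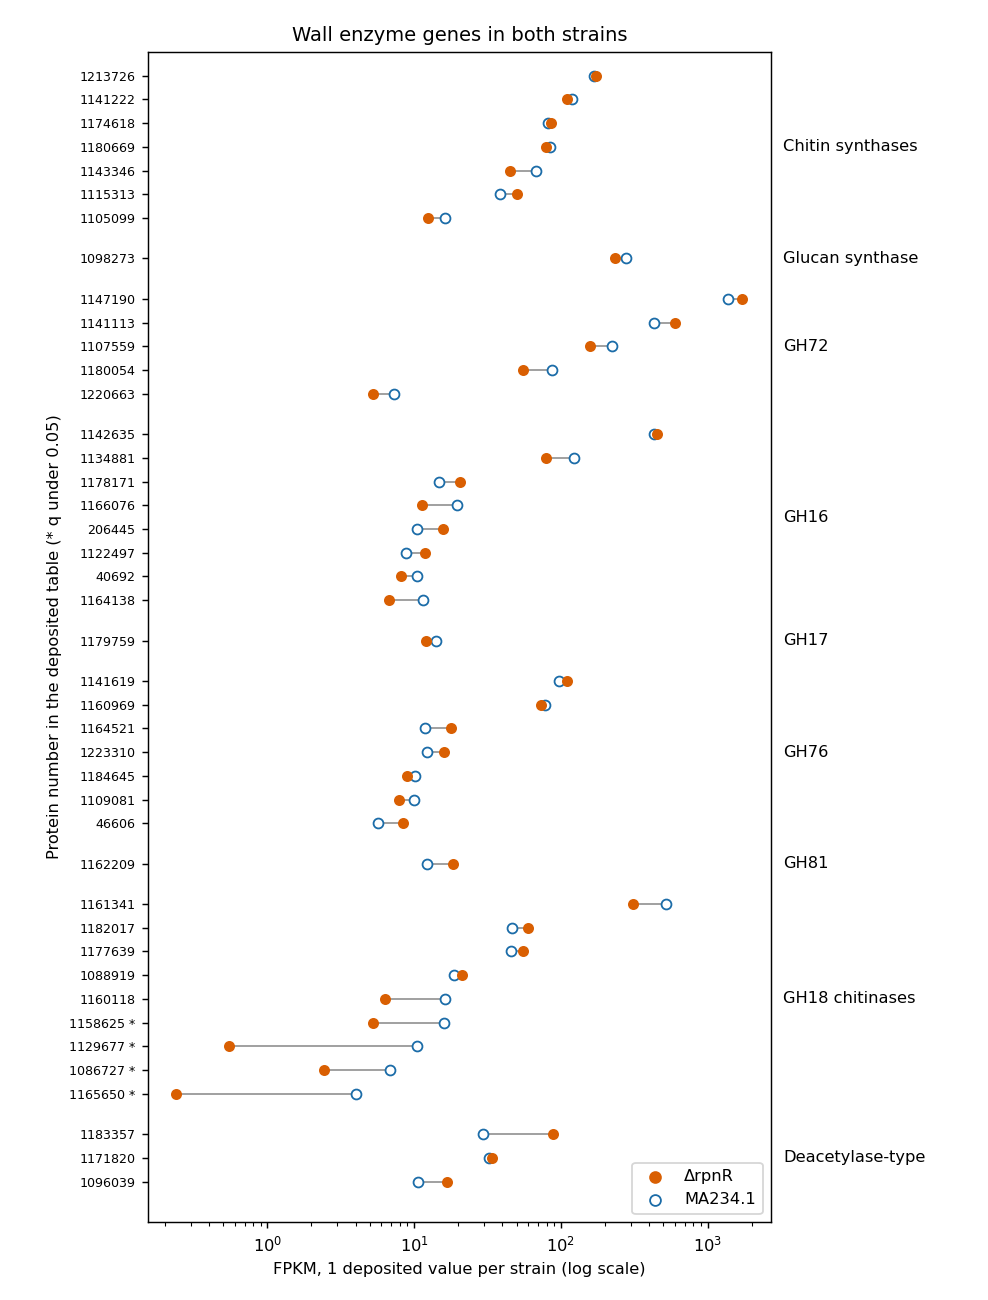
FPKM of 42 wall enzyme genes on a log axis, grouped by family, with filled points for ΔrpnR, open points for MA234.1 and an asterisk where the authors' q was under 0.05. Synthases and transglycosylases show gaps of at most 1.73-fold, that of 1166076. Wider gaps are those of 5 chitinases, 4 of them called, and of the deacetylase-type gene 1183357.

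Chitin synthases add N-acetylglucosamine to the growing chitin chain. The most abundant, 1213726, had 174.9 FPKM in ΔrpnR and 169.6 FPKM in MA234.1. It carries a myosin motor domain next to its synthase domain, an arrangement known from filamentous fungi. The other gene with a myosin domain, 1174618, had 85.3 FPKM in ΔrpnR and 81.3 FPKM in MA234.1. These 2 genes took 31.2% and 15.2% of the summed chitin synthase FPKM in ΔrpnR, and 29.3% and 14.05% in MA234.1. The values of the strains lay 1.03-fold apart for 1213726 and 1.05-fold apart for 1174618. The authors' deposited table gives them a q of 0.982 and 0.975.

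Another domain form is that of 1180669, which has a cytochrome b5 domain and no motor, and had 79.2 FPKM in ΔrpnR and 84.7 FPKM in MA234.1. The genes with the Chitin_synth_1 domain pair showed gaps of differing width. Of these, 1141222 had 110.5 FPKM in ΔrpnR and 118.4 FPKM in MA234.1. A gap of 1.504-fold separated the strains for 1143346, with 44.8 FPKM in ΔrpnR and 67.4 FPKM in MA234.1. In the opposite direction, 1115313 had 49.99 FPKM in ΔrpnR and 38.8 FPKM in MA234.1. The lowest of the group above 5 FPKM was 1105099, at 12.4 FPKM in ΔrpnR and 16.2 FPKM in MA234.1. The lowest q of a chitin synthase in the authors' deposited table, 0.426, was that of 1143346. Of the 3 remaining synthase genes 1173719 was tested, at 2.15 FPKM in ΔrpnR and 1.46 FPKM in MA234.1, and the other two, 1227672 and 1153587, stayed under 1 FPKM in both strains. Summed over the 10 genes, chitin synthase transcripts came to 560.1 FPKM in ΔrpnR and 578.8 FPKM in MA234.1, a ratio of 0.968.

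Beta-glucan synthase, the membrane enzyme that makes the main glucan of the wall, was represented by a single gene. This gene, 1098273, has 16 predicted transmembrane segments and had 235.5 FPKM in ΔrpnR and 279.4 FPKM in MA234.1. The ratio was 0.843, and the authors' deposited table gives a q of 0.908.

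Transglycosylases of the wall cut a chain and join the free end to another. GH72 enzymes elongate beta-glucan, some GH16 enzymes link chitin to glucan, GH17 includes glucan-branching enzymes, and GH76 includes proteins that in yeast help to attach mannoproteins to the wall. GH16 and GH76 also hold enzymes of other substrates, so the domain does not fix the role of each gene. GH72 transcripts were the most abundant of all families: they summed to 2552 FPKM in ΔrpnR and 2139 FPKM in MA234.1.

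Most of that sum came from 1147190, at 1727 FPKM in ΔrpnR and 1381 FPKM in MA234.1. It ranked 85th of all genes in ΔrpnR and 106th in MA234.1. The next gene, 1141113, had 600.9 FPKM in ΔrpnR and 434.3 FPKM in MA234.1. Both carry an X8 domain, a module found at the end of many such enzymes. Values in ΔrpnR were lower for the GH72 genes 1107559 (159.1 FPKM in ΔrpnR, 224.9 FPKM in MA234.1) and 1180054 (55.3 FPKM in ΔrpnR, 87.8 FPKM in MA234.1), which lack X8. The X8 gene 1220663 had 5.28 FPKM in ΔrpnR and 7.28 FPKM in MA234.1. The remaining tested member, 207134, also lacks X8 but was higher in ΔrpnR, with 4.04 FPKM in ΔrpnR and 3.22 FPKM in MA234.1. In the authors' deposited table the 6 tested GH72 genes had q-values between 0.299 and 0.884, so the split between the 2 most abundant genes and the next 2 did not pass the test for any of them.

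Of the GH16 genes 1142635 dominated, with 454.3 FPKM in ΔrpnR and 431.8 FPKM in MA234.1, or 74.3% and 68.2% of the family's sum. The second, 1134881, had 79.3 FPKM in ΔrpnR and 122.3 FPKM in MA234.1. Both have a predicted secretion signal. The widest GH16 gap was that of 1166076, at 11.3 FPKM in ΔrpnR and 19.6 FPKM in MA234.1, and 1164138 was similar at 6.77 FPKM in ΔrpnR and 11.4 FPKM in MA234.1. The deposited values ran the other way for 206445 (15.6 FPKM in ΔrpnR, 10.4 FPKM in MA234.1), 1178171 (20.5 FPKM in ΔrpnR, 14.7 FPKM in MA234.1) and 1122497 (11.8 FPKM in ΔrpnR, 8.86 FPKM in MA234.1). The gene 40692 had 8.13 FPKM in ΔrpnR and 10.5 FPKM in MA234.1. Of the 9 tested GH16 genes, 4 lay above and 5 below MA234.1, and their q-values in the authors' deposited table ran between 0.239 and 0.977.

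The single GH17 gene, 1179759, had 12.1 FPKM in ΔrpnR and 14.1 FPKM in MA234.1. Its product name is glucan 1,3-beta-glucosidase, and it was counted as transglycosylase-type by its domain alone. Among the 11 GH76 genes 7 were tested, with a median log2 ratio of 0.17. The most abundant of them were 1141619, at 109.8 FPKM in ΔrpnR and 97.6 FPKM in MA234.1, and 1160969, at 72.9 FPKM in ΔrpnR and 77.7 FPKM in MA234.1. The other 5, namely 1164521, 1223310, 1184645, 1109081 and 46606, lay between 7.89 and 17.7 FPKM in ΔrpnR and between 5.64 and 12.3 FPKM in MA234.1. The widest of these gaps, that of 1164521, was 1.499-fold, with 17.7 FPKM in ΔrpnR and 11.8 FPKM in MA234.1. The lowest q-value of a GH76 gene in the authors' deposited table was 0.389. Among the 4 GH76 genes that were not tested, 1159261 belongs to secondary metabolism cluster 47 of the file, at 0.611 FPKM in ΔrpnR and 0.382 FPKM in MA234.1.

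Endo-glucanases of the GH81 type cut beta-glucan inside the chain. The only gene of this type, 1162209, had 18.4 FPKM in ΔrpnR and 12.2 FPKM in MA234.1. The authors' deposited table gives it a q of 0.384.

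**Figure D2:**
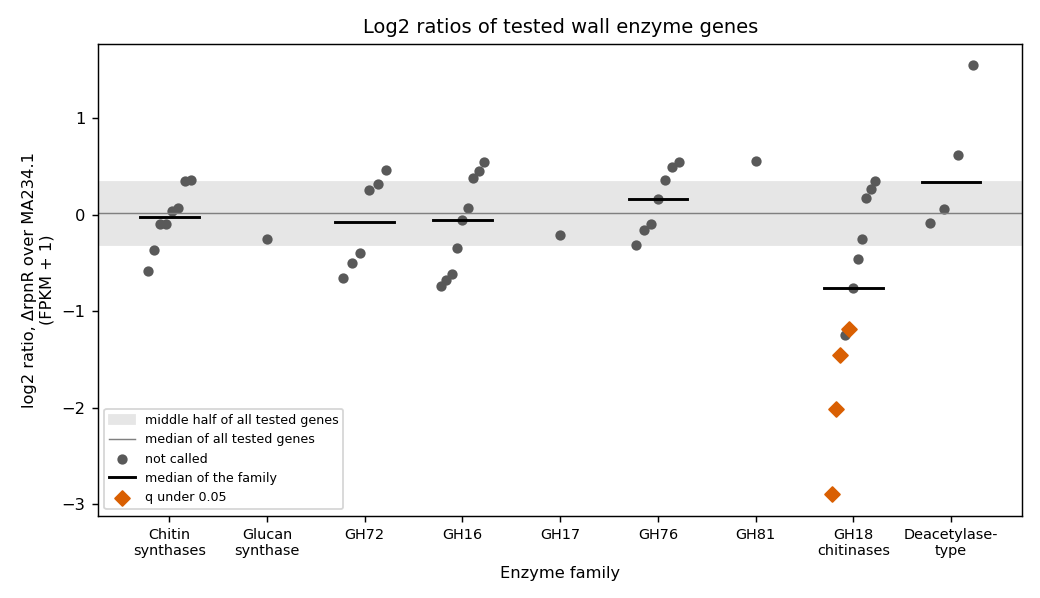
Log2 ratio of ΔrpnR over MA234.1 on the log2(FPKM + 1) scale for the 48 tested genes, 1 point a gene, by family, with black bars for family medians and a grey band for the middle 50% of all tested genes. The 4 called genes, drawn as diamonds, lie in the GH18 family between -1.19 and -2.90, and the highest point is the deacetylase-type gene 1183357 at 1.55.

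Chitinases of the GH18 family cut chitin. The largest fall was that of 1129677, with 0.548 FPKM in ΔrpnR and 10.5 FPKM in MA234.1, a 19.2-fold lower value in ΔrpnR. This gene has neither a predicted secretion signal nor a chitin-binding module. The second, 1165650, fell to 0.241 FPKM in ΔrpnR, against 3.995 FPKM in MA234.1, or 16.6-fold. Both stood below 1 FPKM in ΔrpnR, and 1165650 was below 5 FPKM in both strains.

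Falls of about 3-fold were seen for the other two. Transcripts of 1158625 were at 5.22 FPKM in ΔrpnR and 16.1 FPKM in MA234.1, which is 3.08-fold lower. Transcripts of 1086727 were at 2.45 FPKM in ΔrpnR and 6.85 FPKM in MA234.1, which is 2.79-fold lower. The genes 1129677, 1165650 and 1158625 share a q of 0.0027 in the authors' deposited table, the lowest of any member, and 1086727 has a q of 0.0140. Called LysM genes described below have the same q of 0.0027, so this value does not rank the falls. At q under 0.01 the genes 1129677, 1165650 and 1158625 remained called, against 2.59% of all tested genes. The authors' own flag, which also asks for a 2-fold change and for 10 FPKM in 1 strain, marks 1129677 and 1158625, against 5.46% of all tested genes. On the log2(FPKM + 1) scale the 4 falls were -2.90 for 1129677, -2.01 for 1165650, -1.46 for 1158625 and -1.19 for 1086727. Together these genes summed to 8.46 FPKM in ΔrpnR and 37.5 FPKM in MA234.1, so they made up a small part of chitinase transcripts in either strain.

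The most abundant chitinase, 1161341, was not called. It had 308.4 FPKM in ΔrpnR and 524.2 FPKM in MA234.1, a 1.70-fold lower value, with a q of 0.532 in the authors' deposited table. It took 66.5% of all chitinase FPKM in ΔrpnR and 75.4% in MA234.1. The summed chitinase level of 463.8 FPKM in ΔrpnR and 695.0 FPKM in MA234.1 therefore follows this gene: the log2 ratio of the sums was -0.58 with it and -0.14 without it.

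Just outside the threshold stood 1160118, at 6.30 FPKM in ΔrpnR and 16.3 FPKM in MA234.1. Its value was 2.59-fold lower in ΔrpnR, and its q in the authors' deposited table was 0.0847. A further 3 chitinase genes were slightly higher in ΔrpnR and not called. They were 1182017 with 59.9 FPKM in ΔrpnR and 46.8 FPKM in MA234.1, 1177639 with 55.5 FPKM in ΔrpnR and 46.1 FPKM in MA234.1, and 1088919 with 21.1 FPKM in ΔrpnR and 18.6 FPKM in MA234.1. The direction of 1088919 turned when the strains were rescaled to equal sums of non-ribosomal genes. The low genes 1180887 (3.002 FPKM in ΔrpnR, 3.75 FPKM in MA234.1) and 1152313 (0.918 FPKM in ΔrpnR, 1.64 FPKM in MA234.1) were not called either. The other 3 chitinase genes were not tested and did not exceed 0.190 FPKM.

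Chitinases differ in the modules that accompany the catalytic domain. Some carry Chitin_bind_1 or LysM modules, which bind chitin, and chitinases of this build in filamentous fungi resemble the chitinase subunit of a yeast killer toxin. The groups that follow were formed after the values were seen and are given as a description. Of 14 GH18 genes 7 carry Chitin_bind_1 or LysM. Among the 6 of these that were tested, 5 had lower values in ΔrpnR and 3 were called lower, with a median log2 ratio of -1.22. The 5 tested genes without either module had 3 lower values and 1 call, with a median of -0.25. All 4 tested genes with Chitin_bind_1 were lower, at a summed 9.91 FPKM in ΔrpnR and 28.8 FPKM in MA234.1. The 2 LysM chitinases differed, since 1158625 fell and 1177639 did not.

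A split by predicted secretion signal overlaps with that by module, since 6 of the 7 chitinase genes with a module also have a signal. All 7 tested chitinases with a signal had lower values in ΔrpnR, and the 3 called among them are the same 3 genes as in the split by module. Among the 4 tested chitinases without one, 3 had higher values and 1129677 fell. Outside the chitinases, 11 of 19 tested members with a signal and 7 of 18 without one had lower values in ΔrpnR, and none of them was called. Lower values were found for 45.3% of all tested genes with a signal and 48.7% of all tested genes.

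**Figure D3:**
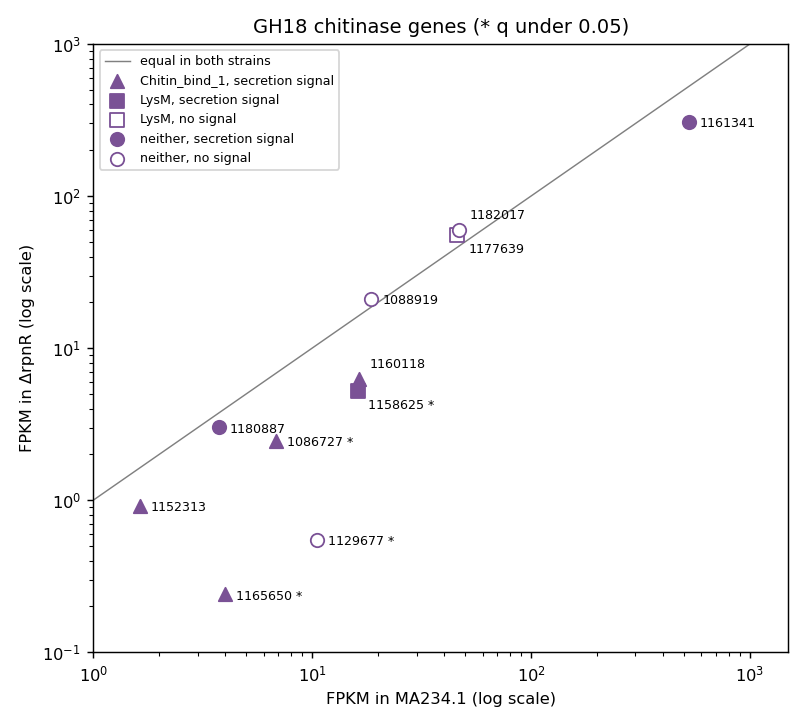
FPKM of the 11 tested GH18 genes in ΔrpnR against MA234.1 on log axes, with marker shape for the chitin-binding module, fill for a predicted secretion signal and an asterisk for a q under 0.05. All filled markers lie below the line of equal values, and of the open ones only 1129677 does.

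Deacetylases of chitin remove acetyl groups, and the same domain occurs in enzymes of other substrates. The widest difference above MA234.1 among all members was that of 1183357, with 88.7 FPKM in ΔrpnR and 29.6 FPKM in MA234.1. This was 2.99-fold higher, with a q of 0.163 in the authors' deposited table, and was not called. It has no predicted secretion signal. A smaller gap was that of 1096039, at 16.9 FPKM in ΔrpnR and 10.6 FPKM in MA234.1. Levels of 1171820, which also has a short-chain dehydrogenase domain, were 33.9 FPKM in ΔrpnR and 32.4 FPKM in MA234.1. The fourth tested gene, 1188295, had 2.33 FPKM in ΔrpnR and 2.54 FPKM in MA234.1. The only member with the product name chitin deacetylase, 45285, was listed at 0 in ΔrpnR and at 0.161 FPKM in MA234.1, and was not tested. The remaining 2 genes of this type were listed at 0 in both strains.

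**Figure D4:**
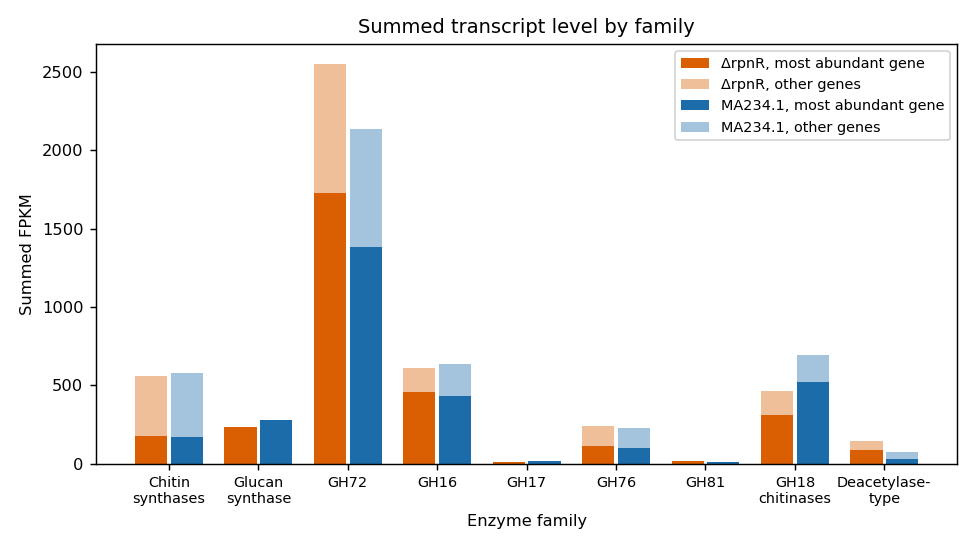
Summed FPKM by family on a linear axis from 0, with ΔrpnR left of MA234.1 and the most abundant gene of each family in the darker shade. GH72 genes sum to 2552 FPKM in ΔrpnR and 2139 FPKM in MA234.1, and the GH18 difference lies mostly in the darker part, 1161341.

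Taken as sums, all 63 genes held 4837 FPKM in ΔrpnR and 4653 FPKM in MA234.1, which is 0.555% and 0.562% of the summed FPKM of all genes. The direction of this small difference depended on the scaling. Ribosomal protein genes, 108 by product name, took 3.80% of the summed FPKM in ΔrpnR and 11.6% in MA234.1. The summed FPKM of all genes also differed, at 872090 in ΔrpnR and 828095 in MA234.1, so the rescaling below evens out both differences. When the sums of all other genes were made equal, the log2 ratios of summed FPKM, ΔrpnR over MA234.1, were lower by 0.20, and that of the members' sum, 0.06 as deposited, became -0.14. That of the transglycosylases, 0.18 as deposited, became -0.015. This rescaling can only lower a ratio, and it turned the direction of 6 named genes that were not called: 1213726, 1174618, 1142635, 1141619, 1088919 and 1171820.

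Genes for the supply of wall precursors, outside the domains above, showed no call among 5 tested. Glucosamine-fructose-6-phosphate aminotransferase, the first enzyme of the route to the chitin precursor, has 2 genes by product name. The abundant one, 1168482, was at 284.1 FPKM in ΔrpnR and 283.5 FPKM in MA234.1. The other, 1125617, had the widest gap of the 5 genes, with 21.5 FPKM in ΔrpnR and 13.6 FPKM in MA234.1, and was not called. The uridylyltransferase that makes UDP-glucose, the glucan precursor, was at 376.8 FPKM in ΔrpnR and 532.1 FPKM in MA234.1 (1172303). In the authors' deposited table the q-values were 0.997 for 1168482, 0.326 for 1125617 and 0.671 for 1172303.

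Alpha-glucan synthases make another wall glucan. All 4 tested genes of this type had lower values in ΔrpnR and none was called, with a median log2 ratio of -0.50. The most abundant, 1180715, had 60.5 FPKM in ΔrpnR and 113.5 FPKM in MA234.1, and 1187342 had 8.43 FPKM in ΔrpnR and 10.3 FPKM in MA234.1. In the authors' deposited table the lowest q of the 4 was 0.217. Among 12 genes for further breakdown of chitin, chitosan and alpha-glucan, 6 were tested and none was called. The leading ones were the GH71 genes 1148284, at 112.4 FPKM in ΔrpnR and 125.6 FPKM in MA234.1, and 1180912, at 16.6 FPKM in ΔrpnR and 18.0 FPKM in MA234.1.

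Genes with chitin-binding or wall-associated domains and no enzyme domain of the rule held 4 calls among 13 tested, 1 higher and 3 lower, where 3.29% of all tested genes were called higher and 3.25% lower. This list was chosen with earlier results of these data known, so the counts are a description and not a test. The LysM gene 1141168 rose, with 296.3 FPKM in ΔrpnR and 92.1 FPKM in MA234.1, which is 3.22-fold higher. The LysM gene 1104721 fell, with 6.89 FPKM in ΔrpnR and 24.0 FPKM in MA234.1. Another LysM gene, 1107461, which also has a pectate lyase domain, fell as well, with 1.67 FPKM in ΔrpnR and 13.1 FPKM in MA234.1. LysM genes thus included calls in both directions, and the 3 share a q of 0.0027 in the authors' deposited table. In all, 5 LysM genes of this list were tested. The gene 1095320 was lower but not called, with 37.9 FPKM in ΔrpnR and 94.6 FPKM in MA234.1 (authors' q of 0.0686). The gene 1153383 was higher but not called, with 6.49 FPKM in ΔrpnR and 2.26 FPKM in MA234.1 (authors' q of 0.110).

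The gene 1148410 has a CFEM domain, a cysteine-rich module of fungal surface proteins. It fell to 184.5 FPKM in ΔrpnR, against 407.6 FPKM in MA234.1, with a q of 0.0447 in the authors' deposited table. The most abundant gene of this list, 1008443, has a WSC domain and the product name of a cell wall integrity sensor. It was not called, at 616.3 FPKM in ΔrpnR and 446.1 FPKM in MA234.1. The other tested WSC genes were lower in ΔrpnR and not called either. Among them, 1173939 had 78.9 FPKM in ΔrpnR and 104.2 FPKM in MA234.1, and 45817 had 59.6 FPKM in ΔrpnR and 87.7 FPKM in MA234.1.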

How the data were processed

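RNA of Aspergillus niger mycelium was sequenced from 6 labelled libraries, 3 of ΔrpnR and 3 of MA234.1. Tools listed in the submitters' processing notes, with no role stated, are Cuffdiff 2.2.1, Cufflinks, TopHat2, Trimmomatic and CASAVA 1.8.3; the build and annotation used are not stated there. In the deposited table there is 1 FPKM value per gene and strain, made by the authors; its header says expression value, and FPKM is inferred from Cuffdiff. The q-value is the authors' deposited one. Genes with a q of 1 (2676 of 11910) were taken as not tested.

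Members were found by domain name. A gene was called at q under 0.05. Log2 ratios used a pseudocount of 1, which understates changes of low genes; folds are ratios of FPKM. No replicate test was possible. Named genes were members called or with at least 5 FPKM in 1 strain, and the 2 most abundant of each class. Called and leading genes of 4 related lists were also named. Other low members and further genes of these lists were named after their values were seen, to account for them. Members and lists were chosen with earlier results of these data known. The simulated data checked only the arithmetic of the summaries, since they held no noise and their q-values were set by the made changes. Python 3.11.15, pandas 2.3.3, NumPy 2.4.6 and matplotlib 3.10.9 were used. Alternatives were a pseudocount of 0.1, a mean of at least 5 FPKM, q under 0.01, the authors' flag, fewer domains, centring and rescaling.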

Additional observations from a re-analysis of the deposited data

How the results depend on the processing

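No paired analysis was possible because the table holds 1 value per strain, and for the same reason no replicate could be left out. The 4 chitinases called lower, also the count over all members, became 2 with the authors' flag and 2 with a mean of at least 5 FPKM, since 1165650 and 1086727 are low; at q under 0.01 the count was 3. No setting gave a member called higher. A pseudocount cannot turn a direction, and centring shifted log2 ratios by only 0.016, less than that of any named member. The median log2 ratio of the deacetylase-type genes went to 0.62 with a mean of at least 5 FPKM. With the sums of non-ribosomal genes made equal, the log2 ratio of summed FPKM turned to -0.14 for all members and -0.015 for transglycosylases, and moved to -0.24 for chitin synthases, -0.44 for the glucan synthase, 0.40 for the endo-glucanase, -0.78 for chitinases and 0.71 for the deacetylase type. Applied to single genes, which was chosen after seeing the data, the same rescaling turned 6 of 42 named members, none of them called: 1213726 (-0.15), 1174618 (-0.13), 1142635 (-0.12), 1141619 (-0.027), 1088919 (-0.014) and 1171820 (-0.13). Without the most abundant gene, likewise chosen after seeing the data, the log2 ratio of sums turned to -0.073 for all members and moved to 0.052 for transglycosylases, -0.14 for chitinases and 0.21 for the deacetylase type. Depth is unknown, so the counting error of genes near 0 FPKM cannot be given.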
